A study of Drosophila melanogaster with 12 samples.

Results

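The comparison described here is that of POS with NEG cells in the absence of IR. It asks which transcripts set hinge cells marked by the 30A-GAL4 driver apart from the other cells of the wing imaginal disc. It rests on 4 of the 12 libraries of the series, chosen by their labels as not irradiated, 2 of POS and 2 of NEG cells, and it covers all 10617 genes with enough counts to be tested. The larvae were w1118/+ or Y; 30A-GAL4>UAS-G-trace/+, so that POS and NEG cells came from the same discs and carried the same transgenes. Both groups were mock-irradiated and sorted 24 h later. POS cells were RFP+GFP+, expressing the 30A-GAL4 driver at sorting, and NEG cells were RFP-GFP-, without present or past driver activity. The driver is an insertion in ds and is thought to mark only a subset of the cells that express ds. Discs were pooled over several crosses, dissections and sorts for each library. A few values from the irradiated libraries, 4 at IR+24h and 4 at IR+48h, are given at the end for the same genes.

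The wing disc is an epithelial sac. Its pouch forms the wing blade, its notum forms the body wall of the thorax, and the folded hinge between them forms the joint of the wing. The hinge is patterned by Wnt, JAK/STAT and Dpp signals and by transcription factors such as Zfh2. Cells other than the epithelium adhere to the disc: muscle precursors lie under the notum, tracheal branches cross it, and hemocytes, the blood cells of the fly, settle on its basement membrane. Cells without driver activity fall into the NEG gate whatever their type.

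Total counts were 4211088 and 15010788 in NEG and 11560273 and 16578622 in POS. Levels are given as CPM, counts scaled to the TMM-adjusted size of the library, and changes as log2 fold changes, positive where POS was higher. A floor of 3 counts equals 0.726 CPM in NEG replicate 1, the shallowest library, and 0.186 CPM in POS replicate 2, the deepest of the 4, covering counting error only. Adjusted p-values come from edgeR's quasi-likelihood F test (two-sided), corrected over the 10617 genes by the method of Benjamini and Hochberg, and a gene was called where its value was under 0.05. In bulk RNA, fewer cells of a type and less RNA per cell cannot be told apart.

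Of the 10617 genes, 284 (2.67%) passed the threshold, 97 (0.914%) higher in POS and 187 (1.76%) lower in POS. All but 14 of them lie outside the hinge, notum and pouch genes by which the study checked its sort. The differences were unlike in size: 8 of the higher genes and 60 of the lower genes had a log2 fold change beyond 3 in either direction. In all 284 genes the POS and NEG libraries did not overlap, which was also so for 34.1% of all genes tested (17% higher in POS and 17.1% lower). The counts depended on single libraries. They were 174 higher and 326 lower without NEG replicate 1, 46 and 82 without NEG replicate 2, 336 and 345 without POS replicate 1, and 39 and 84 without POS replicate 2. A fit to the 4 libraries alone, without the spread shared with the irradiated groups, called 4 and 16 genes, 18 of which were among the 284. A block for the replicate number within each time point called 535 and 714, including all 284. In what follows, adjusted p-values with a replicate block are given where the block changed a call, and the block within time points pairs each POS library with the NEG library of the same number. With library size in place of TMM the median of all genes shifted from 0.01 to 0.12 and the split became 153 higher and 133 lower.

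**Figure D1:**
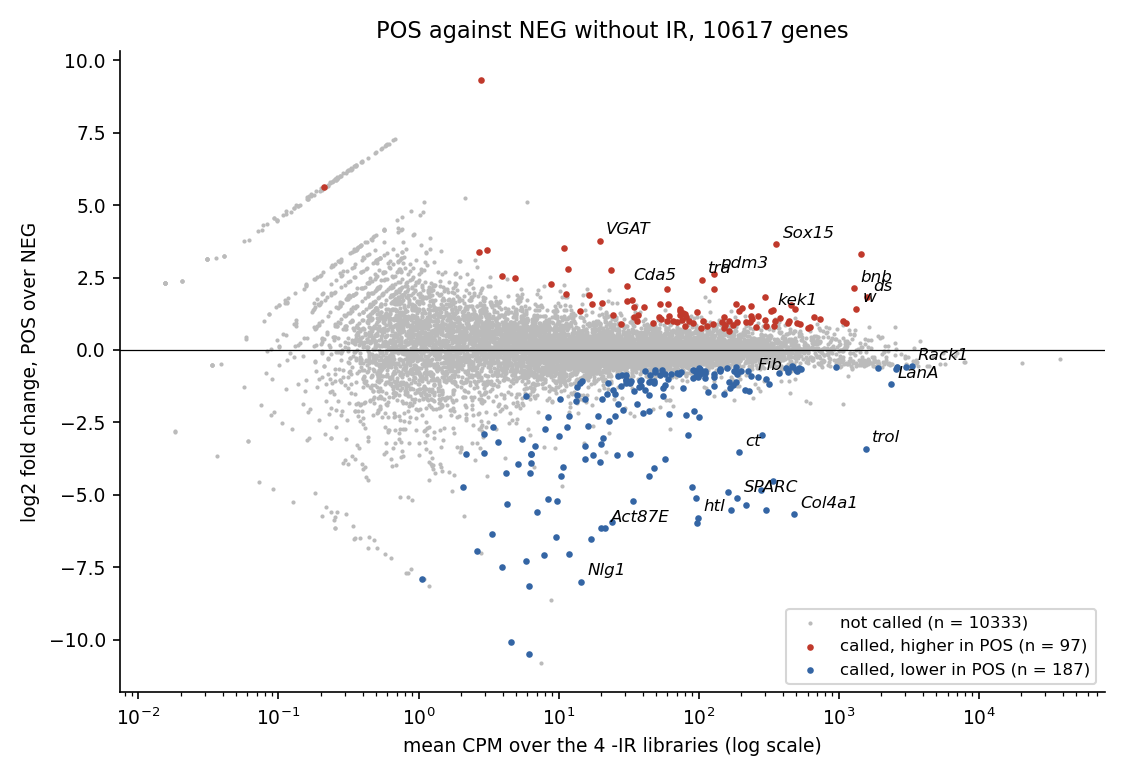
Each dot is 1 of the 10617 genes tested, with its mean CPM over the 4 libraries without IR (log axis) against its log2 fold change (positive where POS was higher). Of the 97 genes called higher in POS, 8 lie beyond a log2 fold change of 3, and of the 187 called lower genes 60 lie beyond -3.

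Sox15, an HMG-box transcription factor of the hinge, and zfh2, the hinge determinant, belong to the genes by which the sort was checked. VGAT (chromosome 2R, 14198478 to 14201249, build BDGP6.54), the vesicular transporter of the neurotransmitter GABA, had 4.11 and 1.74 CPM in the NEG libraries and 24.7 and 48.3 CPM in the POS libraries. Both POS values lie far above both NEG values, with a log2 fold change of 3.77 (SE 0.534, edgeR adjusted p = 0.00443). VGAT lies 140 bases beyond the end of Sox15 on the same strand. Whether its reads belong to Sox15 transcripts was not tested. None of the 11 markers of neurons, glia and sensory precursors passed the threshold, though DESeq2 called 2 of them higher. Their summed level was 178 and 192 CPM in NEG and 237 and 251 CPM in POS. The log2 fold change was above 0 in 8 of the 11 and below 0 in 3, with a median of 0.64. Without overlap, 7 were higher in POS and 0 lower, against 17% and 17.1% of all genes tested.

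pdm3 (chromosome 2R, 8327490 to 8396280), a POU domain transcription factor, had 22.02 and 48.7 CPM in NEG and 172 and 269 CPM in POS. The groups were well separated, and the log2 fold change was 2.61 (SE 0.513, edgeR adjusted p = 0.0232). Its adjusted p was 0.0664 without NEG replicate 1 and 0.0837 without POS replicate 2. bi, the T-box factor Optomotor-blind and a target of Dpp, had 256 and 214 CPM in NEG and 552 and 808 CPM in POS, a log2 fold change of 1.54 (SE 0.221, edgeR adjusted p = 0.00449). bi had been listed with the pouch genes, since it is expressed broadly in the pouch, yet it was higher in POS. Some further regulators were higher as well. They were vvl, another POU domain factor chosen after its value was seen (1.101), mab-21, chosen likewise (1.501) and bowl, a zinc finger factor of the odd-skipped family that was the 1 called gene of the 14 other proximal and hinge regulators (0.79). The call of bowl was lost without NEG replicate 1, NEG replicate 2 or POS replicate 2 and with a replicate block shared by all time points (edgeR adjusted p = 0.0592), that of vvl without NEG replicate 2 or POS replicate 2, and that of mab-21 without NEG replicate 2. hth, which encodes a homeodomain factor of the proximal disc, had 955 and 1490 CPM in NEG and 1664 and 2535 CPM in POS and did not pass (edgeR adjusted p = 0.116, or 0.00131 with the replicate block within time points).

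The genes tra and w were higher in POS and are also parts of common transgenes. tra (chromosome 3L, 16590059 to 16591050), which encodes a splicing regulator of sex determination, had 39.9 and 27.1 CPM in NEG and 183 and 173 CPM in POS. The replicates of each group were close, and the log2 fold change was 2.43 (SE 0.193, edgeR adjusted p = 8.86e-05). None of 6 genes that differ between the sexes, among them Sxl and msl-2, passed the threshold. All 6 had a log2 fold change above 0, and 3 were higher in POS without overlap, against 17% of all genes tested. Their summed level was 1239 and 1433 CPM in NEG and 1499 and 1873 CPM in POS. Whether the groups differed in sex composition was not tested. w (chromosome X, 2790599 to 2796466), which encodes an eye pigment transporter, had 543 and 913 CPM in NEG and 1914 and 2000 CPM in POS (log2 fold change 1.42, SE 0.208, edgeR adjusted p = 0.00495). CG32795, which starts 31 bases beyond the end of w on the same strand, was also higher in POS (1.59, SE 0.227). Hsp70Bb had 62.9 and 50.05 CPM in NEG and 158 and 203 CPM in POS, a log2 fold change of 1.68 that did not pass (edgeR adjusted p = 0.0571, or 0.00541 with the replicate block within time points). As background, w is the marker gene of most P-element transgenes, a nuclear localization signal from the tra product is part of the Stinger form of GFP, and UAS vectors carry Hsp70 leader sequence. In a table of counts per gene, reads from such transgenes and from the endogenous genes cannot be told apart, and POS cells were selected for expressing the reporter. The genes tra, CG32795 and Hsp70Bb were chosen after their values were seen.

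bnb (chromosome X, 18794246 to 18797687) was among the most abundant genes higher in POS. It had 533 and 428 CPM in NEG and 2037 and 2178 CPM in POS, with a log2 fold change of 2.13 (SE 0.190, edgeR adjusted p = 2.21e-04). The call of bnb held without each of the 4 libraries and in the fit to the 4 libraries alone. Fas3, an adhesion protein of septate junctions, and uif, a transmembrane protein with EGF repeats, were higher by 0.92 and 1.01 on the log2 scale. Both lost their calls without NEG replicate 2 or POS replicate 2, and uif also without NEG replicate 1.

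The apical surface of the disc faces a matrix that contains chitin, the polysaccharide of insect cuticle. A list of 30 genes for chitin synthesis and modification, drawn up after values had been seen, had 4 members called higher and 2 called lower. Among all genes tested, 0.914% were called higher and 1.76% lower. The median log2 fold change of the list was 0.40 against 0.01 for all genes. Cda5 (chromosome 2L, 25402 to 65404), related to chitin deacetylases, had 8.71 and 12.7 CPM in NEG and 40.7 and 60.3 CPM in POS (log2 fold change 2.20, SE 0.265, edgeR adjusted p = 0.00144). Gasp, a chitin-binding protein of the tracheal lumen, had 124 and 61.7 CPM in NEG and 305 and 245 CPM in POS (1.58, SE 0.310). kkv, the chitin synthase of epithelia, and Cht7, a chitinase, were higher by 0.92 and 0.93. The 2 lower genes were Idgf4 (-1.58) and Idgf6 (-3.31), which encode secreted proteins of the chitinase family that do not cleave chitin. Called members were 1 higher and 2 lower without NEG replicate 2, and 2 higher and 0 lower without POS replicate 2. Without POS replicate 1 they were 7 higher and 2 lower.

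Genes of the cuticle and of the apical side of the cell were called as follows. Of 57 cuticle proteins, Cpr35B was called higher and Cpr49Ac lower. That is 3.51% of the list, near the 2.67% called among all genes tested. Cpr35B (chromosome 2L, 14424315 to 14425189) had no count in the NEG libraries and 80 and 75 counts in the POS libraries, so that it was at least 11.8-fold higher in POS, taking the floor of 3 counts per library. Its call was lost without NEG replicate 2. dpy, a giant protein of the apical matrix, had 431 and 510 CPM in NEG and 736 and 1262 CPM in POS, a log2 fold change of 1.08 (SE 0.255, edgeR adjusted p = 0.0460). That call was lost without NEG replicate 1, NEG replicate 2 or POS replicate 2 and with the replicate block shared by all time points (0.0581). sdt, a scaffold of the apical Crumbs complex, was the 1 called gene among 12 of apical-basal polarity and junctions. Its log2 fold change was 0.95, a call lost without NEG replicate 2 or POS replicate 2. Of the 12 genes, 11 had a log2 fold change above 0, against 5438 of all 10617 genes tested.

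In the lists for Dpp, EGFR, Wnt, Notch and Fat-Dachsous and Hippo signalling 1 or 2 genes each were called, all higher in POS. Among all genes tested, 0.914% were called higher. Signalling genes outside these lists were also called lower, among them htl and stumps of the FGF pathway, described below. Raf (-1.51) and drl (-1.43), named after their values were seen, were called lower too. The direction given for the lists thus holds for their members only. Of 17 Dpp and BMP genes, the ligand dpp and the secreted antagonist sog passed. dpp had 51.1 and 39.2 CPM in NEG and 105 and 113 CPM in POS (log2 fold change 1.28, SE 0.235, edgeR adjusted p = 0.0171). sog had 122 and 97.1 CPM in NEG and 239 and 315 CPM in POS (1.34, SE 0.202, edgeR adjusted p = 0.00564). Ligand and antagonist both had their POS libraries above their NEG libraries. Of 14 EGFR genes, the ligand vn and the transmembrane inhibitor of the receptor, kek1, passed. kek1 had 190.0 and 185 CPM in NEG and 462 and 487 CPM in POS, with little spread in either group (1.34, SE 0.136, edgeR adjusted p = 5.17e-04), and vn was higher by 0.95 (SE 0.210). Without NEG replicate 2 or POS replicate 2, dpp and vn lost their calls (edgeR adjusted p = 0.0813 and 0.0537 for dpp).

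Of 21 Wnt genes, Wnt5, a ligand, and Notum, the secreted enzyme that inactivates Wnt ligands, passed. Notum had 24.2 and 19.98 CPM in NEG and 42.0 and 60.5 CPM in POS (log2 fold change 1.22, SE 0.286, edgeR adjusted p = 0.0460), and Wnt5 had 86.9 and 91.6 CPM in NEG and 137 and 192 CPM in POS (0.88, SE 0.189). Both calls were lost without NEG replicate 1, NEG replicate 2 or POS replicate 2, and that of Notum with the replicate block shared by all time points (0.0600). Without POS replicate 2, 0 Wnt genes were called higher and 2 lower, and without POS replicate 1 there were 5 higher. wg, the main Wnt of the hinge, had 40.9 and 23.8 CPM in NEG and 49.0 and 75.4 CPM in POS. The log2 fold change, 0.97 (SE 0.289), did not pass (edgeR adjusted p = 0.106), though it did with the replicate block within time points (0.0257), without NEG replicate 1 (0.0268) and without POS replicate 1 (0.0346). In the Notch list 1 of 21 genes passed, E(spl)mgamma-HLH, a basic helix-loop-helix repressor induced by Notch (1.49, SE 0.297), and in the Fat-Dachsous and Hippo list 1 of 17, d, an atypical myosin that acts downstream of Fat (0.77, SE 0.180). Both were lost without NEG replicate 2 or POS replicate 2, and d also with the replicate block shared by all time points (0.0576). E(spl)m6-BFM was counted with the notum genes of the sort check, outside the Notch list, and was lower in POS. It had 433 and 878 CPM in NEG and 23.2 and 34.1 CPM in POS (-4.51, SE 0.471, edgeR adjusted p = 5.75e-04). ds, set apart from the Fat-Dachsous and Hippo list as the driver gene, was called higher (1.82). No gene passed among 9 of JAK/STAT signalling other than upd1, 9 of Hedgehog signalling and 7 of planar cell polarity.

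**Figure D2:**
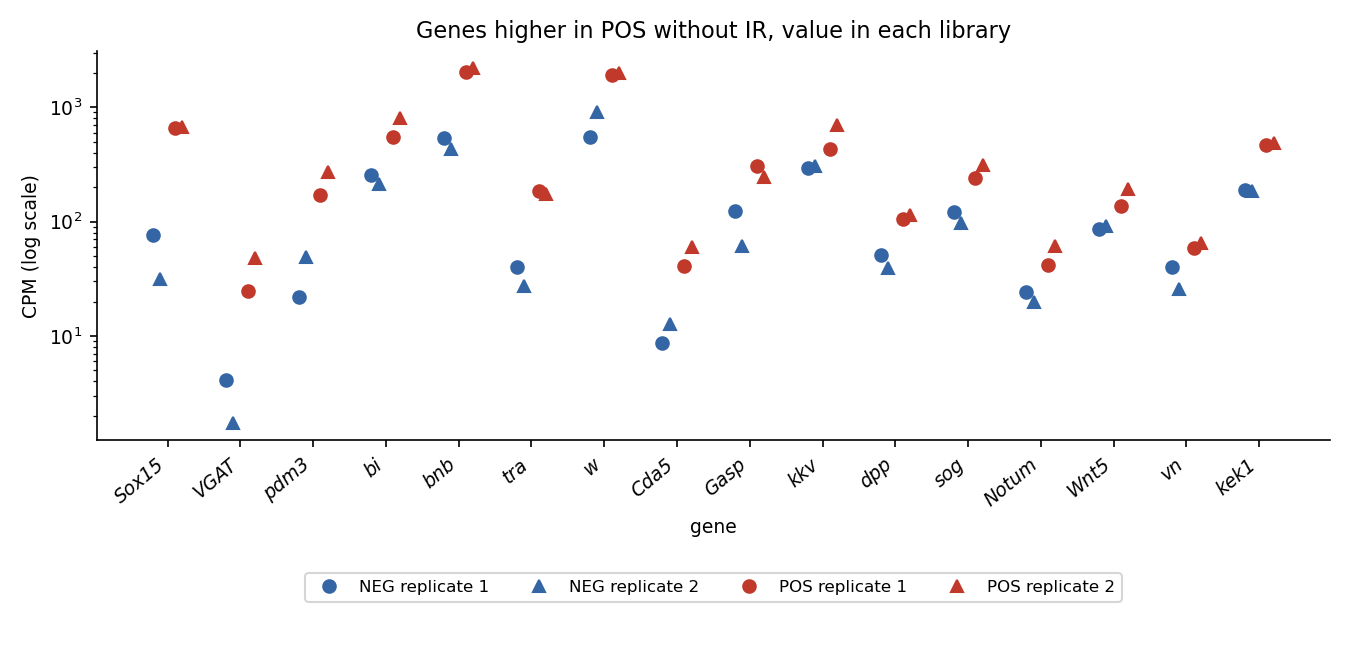
CPM (log axis) of 16 genes higher in POS in each library without IR, NEG in blue and POS in red, with circles for replicate 1 and triangles for replicate 2. In each gene both red points lie above both blue points, from a log2 fold change of 0.88 for Wnt5 to 3.77 for VGAT.

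The genes with the largest difference in the other direction were nearly silent in POS. Nlg1 (chromosome 3R, 7658247 to 7694874), a neuroligin adhesion protein, had 57 and 604 counts in NEG and 1 and 2 in POS. The ratio of NEG to POS was 349, with a 95% counting interval of 119 to 1698. For lectin-28C, with 27 and 246 counts in NEG and 0 and 1 in POS, the ratio was 433 (77.0 to 17151), and 31.8% of its exon bases overlap a gene on the other strand. CG5399 had no count in POS and 13 and 295 in NEG, at least 57.0-fold lower in POS. Hesr had no count in POS and only 9 and 28 in NEG, at least 9.77-fold lower, and its call was lost without any 1 of the 4 libraries and with the replicate block shared by all time points (edgeR adjusted p = 0.0631). The NEG replicates of several of these genes differed widely, and CG5399, CG34296, Adgf-A and CG8501 lost their calls without NEG replicate 2 or POS replicate 2, CG34296 also without POS replicate 1, and lectin-28C without POS replicate 2.

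Of 9 genes of muscle precursors, 4 were called, all of them lower in POS, with a median of -1.32 (log2) over the 9. The share called lower over all genes tested was 1.76%. The other direction was seen in 2 of the 9, with log2 fold changes of up to 0.73 that did not pass. htl (chromosome 3R, 18045216 to 18052984), the FGF receptor of mesoderm, had 132 and 254 CPM in NEG and 2.78 and 4.16 CPM in POS (log2 fold change -5.79, SE 0.458, edgeR adjusted p = 8.86e-05). twi, the basic helix-loop-helix factor that specifies mesoderm, had 113 and 260 CPM in NEG and 3.92 and 6.82 CPM in POS (-5.11, SE 0.569), and 10.3% of its exon bases overlap a gene on the other strand. stumps, the adaptor of the FGF receptor, had 184 and 480 CPM in NEG and 3.43 and 10.9 CPM in POS (-5.51, SE 0.638). The fourth was beat-IIIc (-4.34). The calls of htl, twi and stumps held without each library and in the fit to the 4 libraries alone. Mef2, the muscle differentiation factor, had 96.3 and 227 CPM in NEG and 51.3 and 79.2 CPM in POS and did not pass (-1.32, edgeR adjusted p = 0.0641, or 3.78e-04 with the replicate block within time points).

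Genes with known roles in muscle, named after their values were seen, had like differences: kon, a transmembrane protein of muscle attachment (-4.84), lms, a homeobox factor of muscles (-6.37, with 2 and 0 counts in POS) and meso18E (-4.36). With the muscle list and zfh1 and Him, 2 genes of the sort check that are expressed in these cells, the summed level of 11 markers was 1173 and 2743 CPM in NEG and 394 and 615 CPM in POS, and no marker was at 0 in any of the 4 libraries. NEG replicate 2 thus held more of them than NEG replicate 1, and 149 of the 187 lower genes (79.7%) were higher in NEG replicate 2, against 51.4% of all genes.

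Of 6 hemocyte genes, Hml and Pxn were called lower in POS, a clotting protein and a peroxidase of the matrix. By comparison, 1.76% of all genes tested were called lower. The log2 fold change was below 0 in 5 of the 6 and above 0 in 1 (0.08). Hml had 30.7 and 63.5 CPM in NEG and 0.408 and 1.06 CPM in POS (log2 fold change -5.95, SE 0.736, edgeR adjusted p = 0.00158), and Pxn had 19.6 and 47.4 CPM in NEG and 0.653 and 0.124 CPM in POS (-6.52, SE 1.004). Neither passed with limma voom (adjusted p = 0.0698 for Hml and 0.0679 for Pxn). eater, a phagocytic receptor, did not pass (-4.35, edgeR adjusted p = 0.0851, or 0.0150 with the replicate block within time points). The summed level of the 6 genes was 93.7 and 150 CPM in NEG and 33.6 and 19.2 CPM in POS.

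The basement membrane is a sheet of collagen IV, laminin and perlecan under the epithelium. Both collagen IV genes, which lie head to head 1417 bases apart, were lower in POS. Col4a1 had 573 and 1312 CPM in NEG and 9.72 and 27.2 CPM in POS (log2 fold change -5.66, SE 0.611, edgeR adjusted p = 6.94e-04), and vkg had 394 and 794 CPM in NEG and 7.27 and 18.5 CPM in POS (-5.51, SE 0.556). SPARC (chromosome 3R, 26869238 to 26871995), a collagen-binding glycoprotein, had 290.4 and 446 CPM in NEG and 10.2 and 11.2 CPM in POS (-5.10, SE 0.328, edgeR adjusted p = 3.75e-05). trol, which encodes perlecan, had 1688 and 4024 CPM in NEG and 219 and 322 CPM in POS (-3.40, SE 0.422).

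The laminins differed less. LanA had 2511 and 4070 CPM in NEG and 1221 and 1698 CPM in POS (log2 fold change -1.17, SE 0.257, edgeR adjusted p = 0.0347), a call lost without NEG replicate 2, POS replicate 1 or POS replicate 2. LanB2 (-0.73, edgeR adjusted p = 0.158) and Ppn, papilin (-0.90, 0.224), did not pass, though both did with the replicate block within time points (0.00351 and 0.00301). Of all 22 matrix and receptor genes 6 were called lower, the sixth being the integrin subunit mew (-0.76, lost without NEG replicate 1, NEG replicate 2 or POS replicate 1 and, at an adjusted p of 0.0573, with the replicate block shared by all time points). One further member, dpy, described above, was called higher (1.08), and 7 of the 22 had a log2 fold change above 0. The shares over all genes tested were 1.76% called lower and 0.914% called higher. The part of muscle precursors and hemocytes, whose marker sums are given above, in the levels of the basement membrane genes was not tested.

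**Figure D3:**
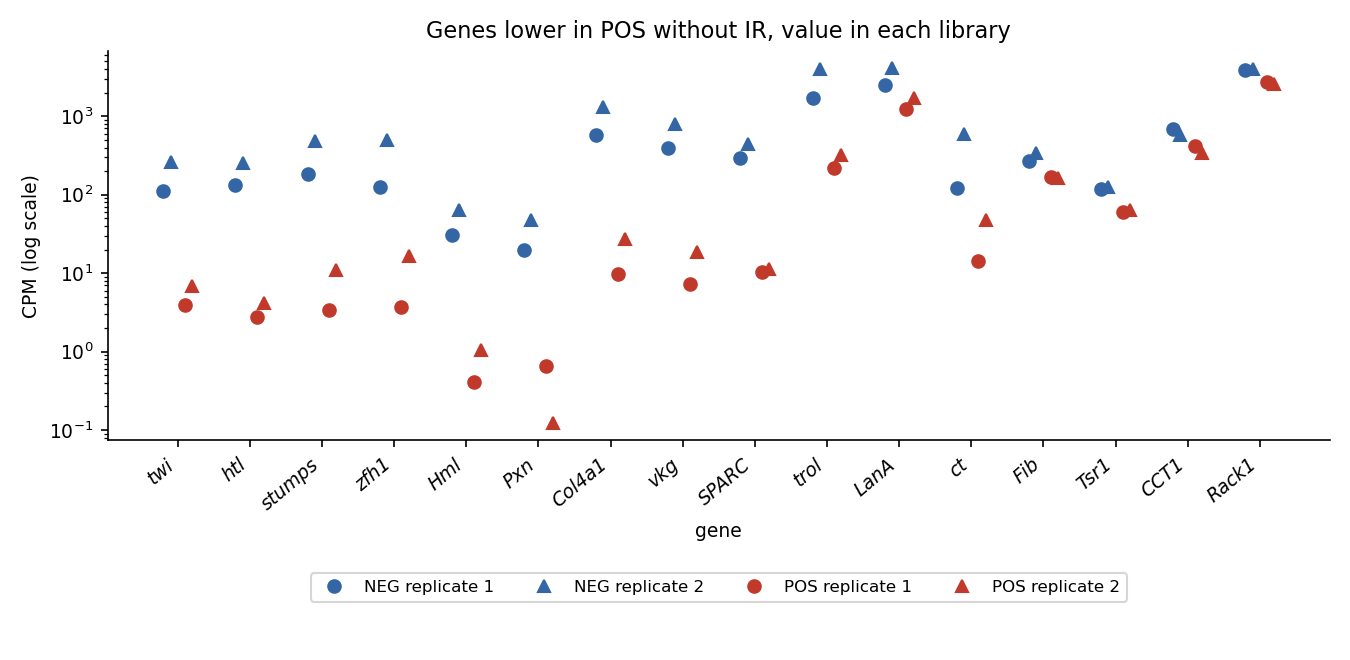
CPM (log axis) of 16 genes lower in POS in each library without IR, NEG in blue and POS in red, with circles for replicate 1 and triangles for replicate 2. The muscle, hemocyte and collagen genes have log2 fold changes of -4.91 or below, whereas Fib, Tsr1, CCT1 and Rack1 differ by log2 fold changes between -0.55 and -0.97.

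**Figure D4:**
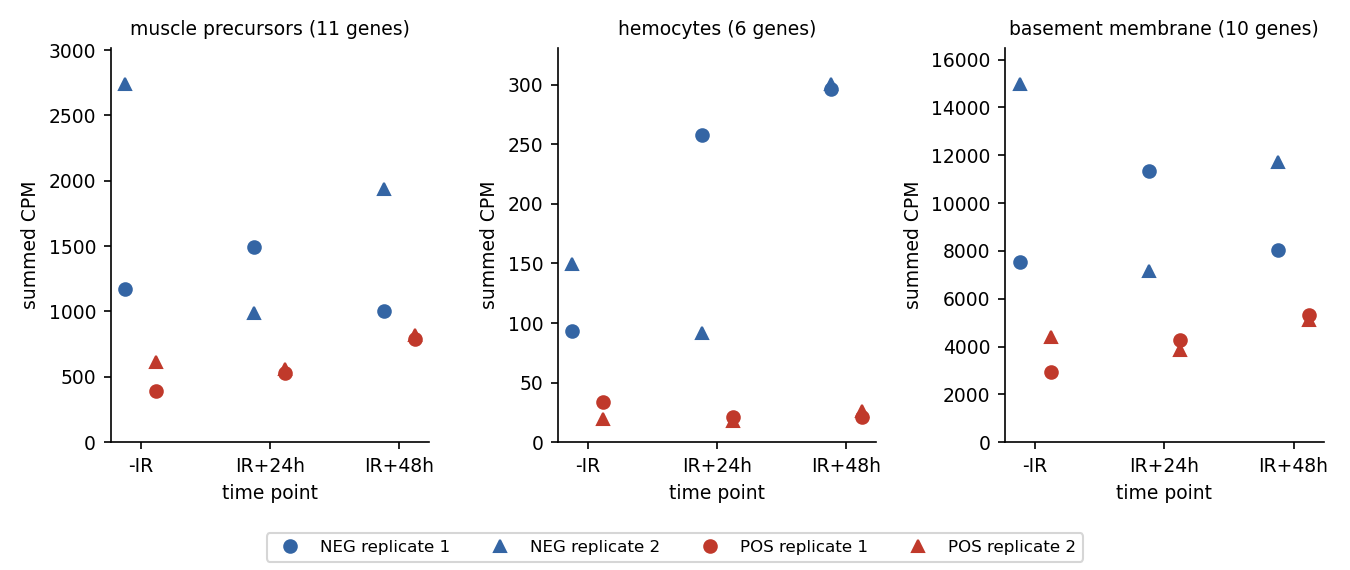
Summed CPM of 11 muscle precursor genes, 6 hemocyte genes and 10 basement membrane genes (linear axes from 0) in all 12 libraries by time point, NEG in blue and POS in red. Without IR the muscle sum is 1173 and 2743 CPM in NEG and 394 and 615 CPM in POS.

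Of 10 other pouch genes, ct, Optix and Cyp310a1 were called lower in POS and bi higher, 6 had a log2 fold change below 0, and the median was -0.20. Over all genes tested, 1.76% were called lower and 0.914% higher. ct, a homeodomain factor of the wing margin, had 121 and 591 CPM in NEG and 14.3 and 47.5 CPM in POS (log2 fold change -3.53, SE 0.766, edgeR adjusted p = 0.0333), and lost its call without NEG replicate 2 or POS replicate 1. ct is also expressed in muscle precursors, so it does not stand for the margin alone. Optix, a homeodomain factor of the anterior wing, had 25.2 and 10.7 CPM in NEG and 2.20 and 2.29 CPM in POS (-2.97, SE 0.511, edgeR adjusted p = 0.0123, lost without POS replicate 2). al, a homeodomain factor (-2.08), and mid, a T-box factor (-3.76), were named after their values were seen and kept their calls without each library. Of 9 other notum regulators and 5 compartment regulators none passed. In the neural adhesion protein CadN the values were 214 and 793 CPM in NEG and 33.9 and 99.2 CPM in POS (-2.92, SE 0.652, lost without NEG replicate 2 or POS replicate 1). trh, the master factor of trachea, had 99.2 and 81.1 CPM in NEG and 13.9 and 40.3 CPM in POS and did not pass (-1.73, edgeR adjusted p = 0.0653, or 0.00251 with the replicate block within time points). The sum of 5 tracheal genes was 978 and 662 CPM in NEG and 1172 and 974 CPM in POS.

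Genes of ribosome production and protein synthesis formed a group with small differences, nearly all toward lower levels in POS. Among 28 nucleolar factors of ribosome biogenesis, 11 were called lower and 0 higher, 27 had a log2 fold change below 0, and the median was -0.73 against 0.01 for all genes. Over all 10617 genes tested, 1.76% were called lower and 5161 had a log2 fold change below 0. Ribosome biogenesis was singled out by the study on these same samples, so the direction of this list is not independent evidence. Fib, the methyltransferase fibrillarin that modifies ribosomal RNA, had 270 and 345 CPM in NEG and 169 and 162 CPM in POS (-0.89, SE 0.155, edgeR adjusted p = 0.0126). Tsr1, a factor of small subunit maturation in yeast, had 118 and 126 CPM in NEG and 60.7 and 63.4 CPM in POS (-0.97, SE 0.145, edgeR adjusted p = 0.00547), with 19.4% of its exon bases under a gene of the other strand. RpI135, the second largest subunit of RNA polymerase I, had 46.7 and 56.8 CPM in NEG and 21.5 and 27.5 CPM in POS (-1.08, SE 0.192).

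Myc, the transcription factor that drives ribosome production, had 519 and 568 CPM in NEG and 301 and 367 CPM in POS (log2 fold change -0.70, SE 0.164, edgeR adjusted p = 0.0458). It lost its call without NEG replicate 2, POS replicate 1 or POS replicate 2, and 40.9% of its exon bases overlap a gene on the other strand. The number of called nucleolar factors was 18 without NEG replicate 1, 1 without NEG replicate 2, 10 without POS replicate 1 and 4 without POS replicate 2. Mybbp1A, a nucleolar protein named after its values were seen, had a log2 fold change of -1.27, a call lost without NEG replicate 2 or POS replicate 1.

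The structural proteins of the ribosome differed by less. Of 84 cytoplasmic ribosomal proteins, 3 were called lower (RpL6, RpL13 and RpL23A), 81 had a log2 fold change below 0, and the median was -0.45. In 78 of them the groups did not overlap in that direction. Among all genes tested, 1.76% were called lower and 17.1% were lower in POS without overlap. RpL6 had 3150 and 3147 CPM in NEG and 2147 and 1873 CPM in POS, close replicates with a log2 fold change of -0.65 (SE 0.146, edgeR adjusted p = 0.0393). Rack1, a scaffold on the small subunit, had 3907 and 3996 CPM in NEG and 2771 and 2616 CPM in POS (-0.55, SE 0.128, edgeR adjusted p = 0.0443). The 3 ribosomal proteins and Rack1 lost their calls without NEG replicate 1, NEG replicate 2 or POS replicate 2 and with library size in place of TMM. Without POS replicate 1, 30 ribosomal proteins were called. Of 72 mitochondrial ribosomal proteins 0 were called by edgeR, 64 had a value below 0, and the median was -0.43. Of 42 translation factors, eEF1gamma (-0.57) and eEF1alpha2 (-5.37) were called lower. The latter is a close paralog of eEF1alpha1, and how reads that match both were counted is not given.

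With library size in place of TMM the medians were -0.62 for nucleolar factors, -0.35 for cytoplasmic and -0.31 for mitochondrial ribosomal proteins, against 0.12 for all genes. The next lists, drawn up after values had been seen, had the same sign. For comparison, 1.76% of all genes tested were called lower and 17.1% were lower in POS without overlap. The CCT chaperonin, which folds actin and tubulin, had 4 of 8 subunits called lower, all 8 non-overlapping, and a median of -0.56. CCT1 had 680 and 575 CPM in NEG and 416 and 342 CPM in POS (-0.73, SE 0.145). ATP synthase had 2 of 15 genes called lower (ATPsynD at -0.71 and ATPsynO at -0.65) and aminoacyl-tRNA synthetases 2 of 17 (AsnRS at -0.68 and HisRS at -0.69). With library size in place of TMM 0 genes of the CCT and 0 of the ATP synthase list were called, and the same was so without POS replicate 2. Without NEG replicate 2 they were 1 and 0. For the synthetases 0 were called with library size in place of TMM, without NEG replicate 2 or without POS replicate 2, and 4 without NEG replicate 1. With the replicate block shared by all time points ATPsynO (edgeR adjusted p = 0.0562), HisRS (0.0579) and CCT8 (0.0546) did not pass. TFAM, which packages mitochondrial DNA (-1.08), COX5A (-0.95) and Cyt-c1 (-0.72) of the respiratory chain, and Tom40 of the outer membrane pore (-0.71), were named after their values were seen, and each lost its call without NEG replicate 2 or POS replicate 2, Cyt-c1 also with the replicate block shared by all time points (0.0562).

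Of 18 cell cycle genes none passed, with a median log2 fold change of 0.00 and 9 on each side of 0. Of 15 DNA replication genes none passed, with a median of -0.22 and 10 below 0. Among these 15, 9 were lower in POS without overlap, against 17.1% of all genes tested. None passed among 14 cell death genes, 10 genes of JNK and stress response, 20 of the ecdysone response, 13 of insulin and growth signalling or 12 of glycolysis. Of 13 heat shock proteins Hsp60A, the mitochondrial chaperonin, was called lower (-0.68, lost without NEG replicate 2 or POS replicate 2).

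**Figure D5:**
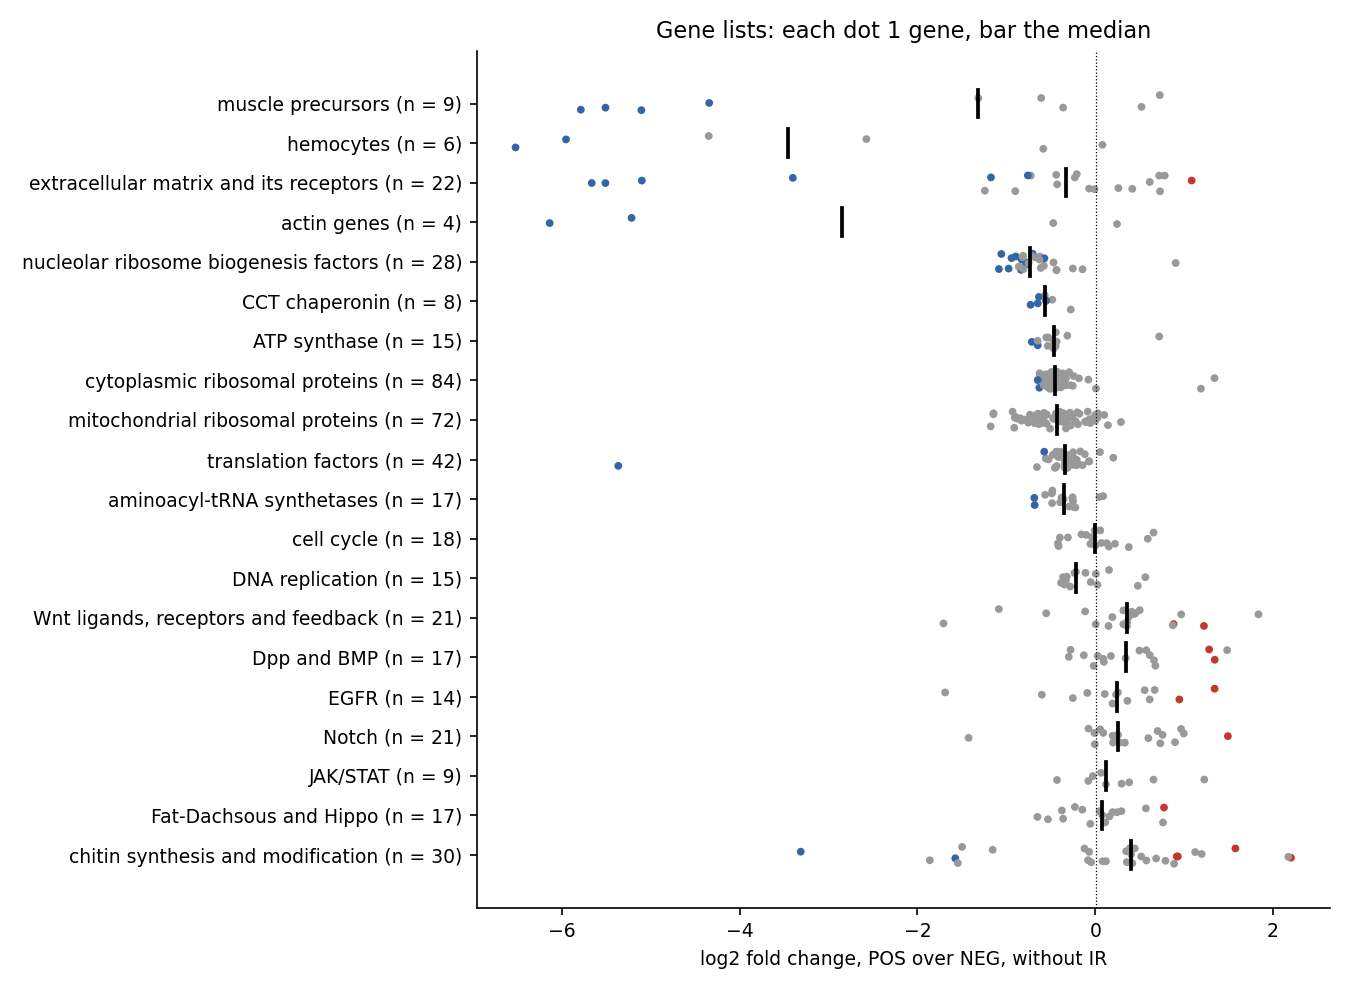
Log2 fold change without IR (positive where POS was higher) for each tested gene of 20 lists, red where called higher, blue where called lower and grey where not called, with a black bar at the median and a dotted line at the median of all genes. Members of the muscle, hemocyte, matrix, actin and translation factor lists reach beyond -4. Nucleolar factors lie between -1.08 and 0.91, with a median of -0.73.

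The actin genes, a list drawn up after values had been seen, differed among themselves. Of 4 tested, 2 were called lower in POS, where 1.76% of all genes tested were. The highest log2 fold change among the 4 was 0.25, the only one above 0. Act87E had 39.0 and 45.3 CPM in NEG and 0.408 and 0.744 CPM in POS (log2 fold change -6.14, SE 0.420, edgeR adjusted p = 3.75e-05), and Act57B had 49.1 and 83.7 CPM in NEG and 1.63 and 1.92 CPM in POS (-5.22, SE 0.538). Both are muscle actins, and Act57B also belongs to the notum genes of the sort check. Act5C, the main cytoplasmic actin, had 5541 and 6684 CPM in NEG and 4480 and 4331 CPM in POS and did not pass (-0.47, edgeR adjusted p = 0.0904, or 0.0298 with the replicate block within time points). These genes are near-identical in their coding sequence, and how reads that match several of them were counted is not given.

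At the irradiated time points the POS and NEG libraries are other samples than those above. Of the 284 genes, 280 had the same sign at IR+24h and 280 at IR+48h, where 67.3% and 66.6% of all genes tested did. At IR+24h 54 genes (0.509%) passed in all, 46 of them among the 284 in the same direction, and at IR+48h 35 genes (0.33%) passed, 28 of them among the 284. The genes tra (2.62 and 2.63), bnb (1.99 and 1.96), w (1.66 and 1.60) and VGAT (4.79 and 3.81) passed at both times. The difference between POS and NEG was smaller at IR+24h in 260 and at IR+48h in 266 of the 284 genes, which were selected by the size of the value without IR, so that a smaller second value follows in part from the choice. A test of the change in this difference called 0 genes against IR+24h with edgeR (353 at an unadjusted p under 0.05) and 2 against IR+48h, Act87E and SPARC (350 at an unadjusted p under 0.05). Without irradiation there was no collection at the later time, so IR and age cannot be told apart for IR+48h. The paper also states that larvae irradiated at different ages went into the IR+48h samples. The labels do not give these ages.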

How the data were processed

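RNA was measured by poly-A RNA-seq in 12 libraries, 2 in each of 6 groups. The authors removed adapters, leading bases and short reads, used STAR 2.6.0a for alignment and counting against BDGP6, and deposited raw counts per gene without normalization. The strand of counting is not given in the sources used here. The table holds 17753 genes, of which 17670 matched the BDGP6.54 annotation, and 1 column of no sample, which was not used.

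Counts were fitted with edgeR 4.0.16 (TMM, filterByExpr, quasi-likelihood F test, 6 group means over 12 libraries) under R 4.3.3. The biological coefficient of variation was 0.303. Alternatives were limma 3.58.1 voom, which the authors used, DESeq2 1.42.0, library size without TMM, no filter, 1 CPM in all 12 libraries, the 4 libraries alone, replicate blocks, each library left out, and a log2 fold change above 1. Same-numbered POS and NEG libraries deviated together (correlations 0.522, 0.145 and 0.190 over genes at the 3 time points), and the numbers come from the labels. On simulated data 60.8% of 194 genes changed 4-fold among 10273 were recovered, and 2.48% of calls were unchanged genes.

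Genes named are the 12 largest changes per direction, the 6 most abundant, and called list members, not all of which are described. Other called genes are stated as chosen after their values were seen, and the genes given as not passing (wg, hth, Hsp70Bb, trh, Mef2, eater, LanB2, Ppn and Act5C) were chosen with their values known. The members and lists were chosen with earlier results of these data known. Bounds use a floor of 3 counts per library, and counting intervals are exact (conditional binomial, 95%). Promoter sequences were not used here.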

Additional observations from a re-analysis of the deposited data

Results flagged for a closer look

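Act87E and SPARC differed between time points in the contrast of POS with NEG. For Act87E the log2 difference without IR minus that at IR+48h was -4.44 (edgeR adjusted p = 0.00996), and at IR+48h the NEG libraries had 20.98 and 27.9 CPM, the POS libraries 6.61 and 8.41 CPM. For SPARC it was -3.71 (edgeR adjusted p = 0.00996), and at IR+48h the NEG libraries had 259 and 372 CPM, the POS libraries 139 and 102 CPM. In both genes POS was higher at IR+48h than without IR in each library, and IR and age cannot be told apart.

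Cpr49Ac was lower in POS in both libraries without IR (24.9 and 94.0 CPM against 4.98 and 5.03 CPM) and higher in POS in both at IR+24h (32.2 and 17.0 CPM in NEG against 40.6 and 32.9 CPM, a log2 fold change of 0.58). The test of this difference did not pass (edgeR adjusted p = 0.490).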

How the results depend on the processing

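Apart from Raf and drl, which were not followed there, no named gene changed direction under any alternative run. The 97 higher and 187 lower genes became 283 and 416 with DESeq2, 393 and 358 with no filter on low counts, and 4 and 16 with the 4 libraries alone. Library size without TMM gave 153 higher genes, and the filter of 1 CPM in all 12 libraries gave 102 lower genes. Leaving out 1 library gave 39 to 336 higher and 82 to 345 lower genes. The cause of these changes was not tested. With the replicate number as a block, 95 higher and 163 lower genes passed, 242 of the 284 among them, and with the block within each time point 535 and 714, all 284 among them. The replicate block ended the calls of 15 of the 117 called genes named by the rule or in the text, Raf and drl left out. The block within each time point ended none of the 117 and brought all 9 genes given as not passing under the threshold. limma voom ended 21 and DESeq2 1. NEG replicate 1, with 4211088 counts, has the highest floor, so absence of low genes from NEG is the least certain.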
